A study of Rattus norvegicus with 31 samples.

Results

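Axon guidance ligands and receptors were followed in the hippocampal CA3 region of aged rats after training to a visible platform and a later probe trial. The set held semaphorins of classes Sema3 to Sema6 with their plexin and neuropilin receptors, the ephrins with the Eph receptors, the Slits with the Robo receptors, and the netrins with the Unc5 receptors. Members were chosen by gene symbol and not by a measured value, but with earlier results of these data known. The symbols matched 41 genes and 61 probesets of the array. One match, Unc50, shares only letters with the Unc5 receptors and was kept apart, which left 40 genes and 60 probesets out of 9037 singly named genes and 16204 probesets. These were 11 semaphorins, 9 plexins and neuropilins, 8 Eph receptors, 2 ephrins, 5 Slits and Robos, and 5 netrins and Unc5 receptors. Ephrin-A ligands and class 7 semaphorins were not analysed here.

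RNA was measured in 31 male Long-Evans rats, with 1 array per rat. Their age was 24 months when they were characterized in a water maze, and the training before dissection followed weeks later. Rats whose water-maze learning index lay within the range of young adults were aged unimpaired (AU), and those outside it were aged impaired (AI). In a single session of 8 trials each rat was trained either with a fixed platform and prominent cues around the pool (spatial, S) or with a platform that was moved on each trial and no such cues (non-spatial, NS). All groups swam and all were given a probe trial before CA3 was dissected about 2 h after the task began, so no group was at rest. The groups were AU-S (n = 8), AI-S (n = 8), AU-NS (n = 8) and AI-NS (n = 7). With both tasks pooled they are called AU-act (n = 16) and AI-act (n = 15). Tissue of both hemispheres was combined for each rat, and it holds every cell type of the dissected region.

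Guidance molecules steer growing axons by attraction or repulsion. Slits are secreted and act on Robo receptors, netrins attract through Dcc and repel through Unc5 receptors, and semaphorins act on plexins, the secreted class with neuropilins as co-receptors. Ephrins are held at the membrane, so that they signal between touching cells and in both directions. Many of these genes stay active in the adult hippocampus, where Eph receptors and semaphorins are known to shape dendritic spines and synapses.

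Signals are gcRMA values on the log2 scale, on which a difference of 1 is a doubling. The medians of the arrays lay between 8.97 and 9.14. Member probesets had means over the arrays between 5.04 and 13.63. The signal of a probeset depends on its probes as well as on its RNA, so members are not ranked by signal here. Differences are AU minus AI or S minus NS. A probeset passed the test at an adjusted p under 0.05 in AU-act against AI-act and under 0.1 in the other comparisons (limma, two-sided, Benjamini-Hochberg over all 16204 probesets). Where a gene had several probesets, the brightest stood for it and the others are given beside it.

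RNA controls differed between the phenotypes and stand here before the results, beside cell markers, which were described without a test. The mean 3′ minus 5′ signal of the array's Gapdh and beta-actin controls, which is larger in shorter RNA, averaged 1.45 ± 0.097 in AU-act arrays and 1.59 ± 0.125 in AI-act arrays (SD, n = 16 and 15), a difference of -0.143 (permutation test, two-sided, p = 0.00078). It was -0.108 between AU-S and AI-S (exact permutation p = 0.0502) and -0.178 between AU-NS and AI-NS (exact permutation p = 0.00591). The hexokinase control probesets differed by -0.38 (permutation p = 6e-05). Over the whole array 893 probesets passed in AU-act against AI-act, and 1 passed with the Gapdh and beta-actin control as a covariate and 0 with the hexokinase control. The CA3 pyramidal markers were measured at 6 of 9 listed symbols, among which Pvrl3 is an older name of Nectin3. They lay between 10.49 and 10.84 in AU-act arrays and between 10.39 and 10.70 in AI-act arrays. The dentate granule markers (2 of 7, Prox1 and Calb1) averaged 9.50 in AU-S, 9.95 in AI-S, 9.66 in AU-NS and 9.46 in AI-NS arrays. Their AU-act minus AI-act difference was -0.14, with an SD of 0.2 in AU-act and 0.43 in AI-act arrays. That of the CA2 list (3 of 5) was 0.14 (SD 0.18 and 0.13). That of the microglial list (5 of 7) was -0.11 (SD 0.19 and 0.29). The lists for CA1 pyramidal cells (5 of 6), interneurons (7 of 8), oligodendrocytes (9 of 10), their precursors (2 of 4), astrocytes (7 of 7), endothelium (6 of 9) and meninges (2 of 5) differed by -0.08 to 0.08. In such tissue, fewer cells of a type and less RNA per cell cannot be told apart.

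The comparison of AU-act with AI-act asked which genes separate preserved from impaired memory after recent behaviour. Among axon guidance genes it separated few. Slit1, the secreted Robo ligand, was higher in AU-act rats, and so were 1 probeset of Robo2, a receptor for it, and 1 probeset of Epha4, a receptor tyrosine kinase for ephrins. At 1 probeset per gene, 1 of 40 genes passed the test and was higher, and 0 were lower. Of all 9037 named genes, 2.05% were called higher and 0.310% lower, or 2.36% in either direction. Counting every probeset, 3 of 60 passed, all higher, against 5.00% of all 16204 probesets called higher, 0.512% called lower and 5.51% called in either direction. The share of members called was close to the share of all genes and probesets called. Unadjusted p was under 0.05 in 5 of 40 genes, or 12.5%, and in 14.0% of all named genes, and in 10 of 60 probesets, or 16.7%, and in 19.5% of all probesets. Differences ran between -0.12 and 0.33 with a median of 0.024, against a median of 0.0032 over all named genes, and 24 were positive and 16 negative, where 51.7% of all named genes were positive. The values of AU-act and AI-act rats overlapped in all 60 probesets, and over the whole array 0% of probesets had values that did not overlap.

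**Figure D1:**
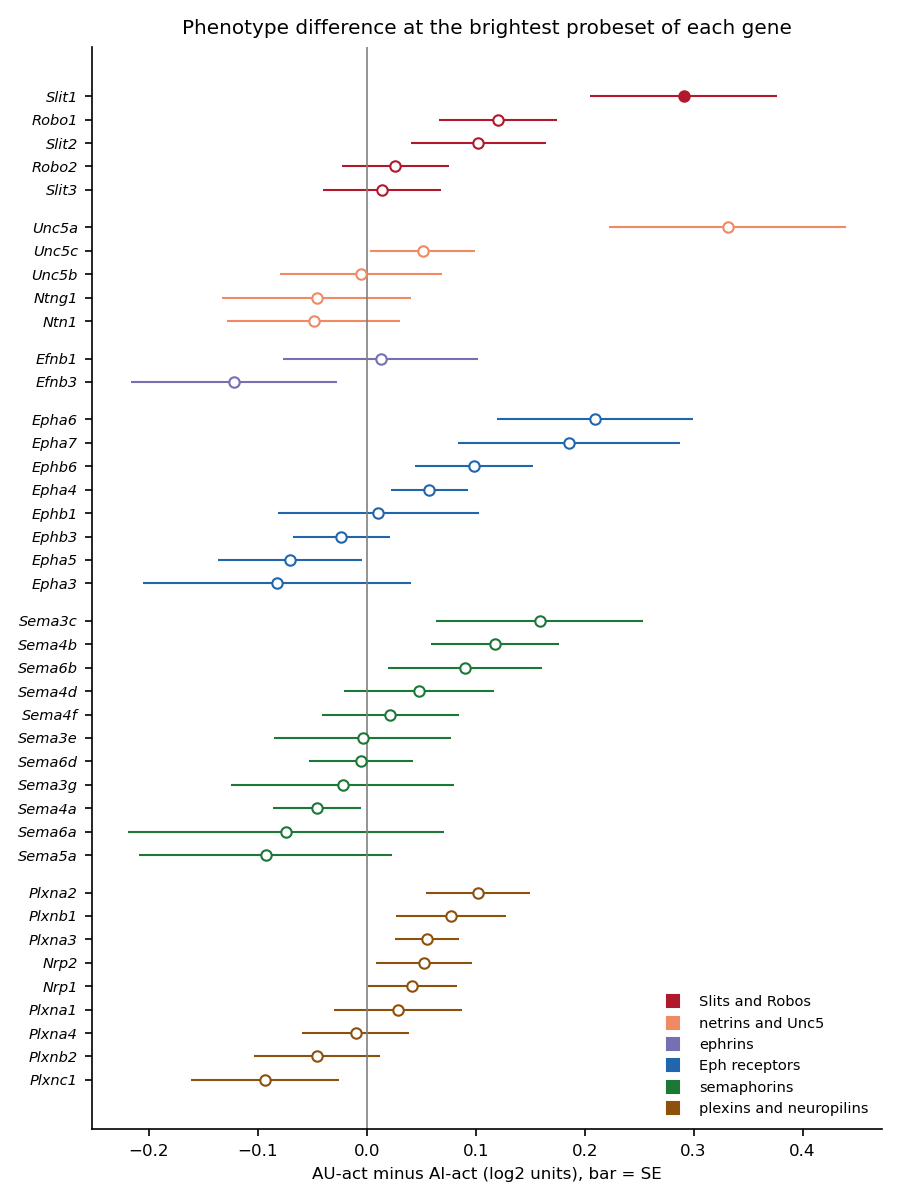
AU-act minus AI-act difference (log2 units, bars are the standard error) of the 40 genes at the brightest probeset, grouped by role. Filled points passed the test (adjusted p under 0.05). Slit1 is the only filled point, and Unc5a lies furthest to the right at 0.33.

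The Slits and Robos were the one group in which all members were positive, at 5 of 5 genes and 8 of 8 probesets, with differences of 0.01 to 0.29 and a median of 0.102 over the genes. Of all named genes 51.7% were positive, and of all probesets 53.3%. The RNA control covariates were followed at Slit1, the brightest probeset of Slit2, and the brightest and called probesets of Robo2. Not all of these stayed positive. The brightest probeset of Robo2 stood at -0.03 with Gapdh and beta-actin and at -0.05 with hexokinase, and Slit2 at -0.01 with hexokinase. Robo1, Slit3 and the remaining probesets were not followed. Slit1 was read by a single probeset. Its values were 7.20 at the lowest, 7.60 at the median and 7.93 at the highest in AU-S rats, and 7.08, 7.39 and 7.88 in AI-S rats. After the non-spatial task they were 7.42, 7.60 and 8.13 in AU-NS rats, and 6.82, 7.34 and 7.49 in AI-NS rats. The highest value was in an AU-NS rat and the lowest in an AI-NS rat, and the ranges overlapped in both tasks. Slit1 averaged 7.66 ± 0.24 in AU-act rats and 7.37 ± 0.26 in AI-act rats (SD), a difference of 0.29 ± 0.09 (SE) or 1.22-fold (limma adjusted p = 0.0404), with 15 of 16 AU-act rats above the mean of AI-act rats. The Slit1 call stood close to the threshold. It was lost when any of 14 of the 31 arrays was left out (replicates 3, 4 and 6 of AU-S; 2, 3, 5 and 6 of AI-S; 2, 4 and 7 of AU-NS; 1, 4, 7 and 8 of AI-NS), with differences of 0.252 to 0.327 and adjusted p of 0.0116 to 0.0735. It was also lost with median centring (adjusted p = 0.0613) and quantile normalization (0.0514). With the Gapdh and beta-actin control as a covariate the difference was 0.28 (adjusted p = 0.293), and with the hexokinase control it was 0.29 (adjusted p = 0.619).

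Robo2 gave different answers at its 3 probesets. The second in brightness ran from 7.08 over a median of 7.31 to 7.61 in AU-S rats, and from 6.71 over 7.15 to 7.40 in AI-S rats. In AU-NS rats it lay between 7.22 and 7.43 with a median of 7.29, and in AI-NS rats between 6.56 and 7.28 with a median of 7.08. The 8 AU-NS rats were tightly grouped and all stood above the AI-NS mean. Over both tasks this probeset averaged 7.32 ± 0.14 in AU-act and 7.07 ± 0.22 in AI-act rats, a difference of 0.25 ± 0.07 or 1.19-fold (limma adjusted p = 0.0181). All 16 AU-act rats lay above the AI-act mean, and leaving out any 1 array left the call in place (adjusted p of 0.00648 to 0.0338). It did not hold with the RNA controls as covariates, where the difference was 0.20 (adjusted p = 0.309) with Gapdh and beta-actin and 0.12 (adjusted p = 0.763) with hexokinase. The brightest probeset of Robo2 differed by 0.03 (adjusted p = 0.827) and the dimmest by 0.08 (adjusted p = 0.623).

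The remaining members of this pair of families did not pass. Robo1, the other Robo receptor measured, averaged 7.38 ± 0.15 in AU-act and 7.26 ± 0.15 in AI-act rats, a difference of 0.12 (limma adjusted p = 0.207), with 14 of 16 AU-act rats above the AI-act mean. Slit2 had medians of 10.45 in AU-act and 10.36 in AI-act rats and differed by 0.10 at its brightest probeset (adjusted p = 0.376) and by 0.03 at the other. Slit3 differed by 0.01. At the brightest probesets, all 5 genes were also positive after the spatial task and 3 of 5 after the non-spatial task. Robo1 lies outside the rule by which genes were named, and so do Slit3, Ntn1, Plxna2, Nrp2 and Sema6b, which were all named after their values were seen.

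**Figure D2:**
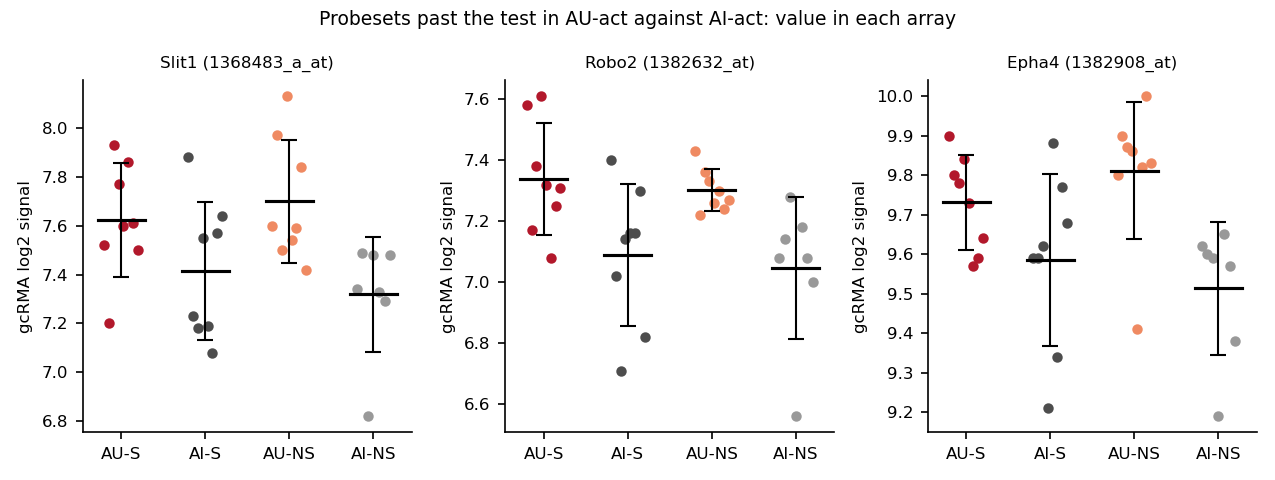
Value of each array (gcRMA log2 signal) for the 3 probesets that passed the test in AU-act against AI-act. Points are rats, thick lines group means and bars the SD over 8 rats (7 in AI-NS). AU rats sit higher on average in both tasks, and AU and AI rats overlap in every panel.

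Among the netrins and Unc5 receptors, none of 5 genes passed the test. Unc5a, a repulsive netrin receptor, had the largest difference of the 40 genes. It ran from 8.38 over a median of 8.68 to 8.99 in AU-S rats, and from 7.99 over 8.56 to 9.19 in AI-S rats. After the non-spatial task it ran from 8.45 over 8.59 to 9.12 in AU-NS rats, and from 7.67 over 8.25 to 8.52 in AI-NS rats. The AU medians differed little between tasks, and the lowest value was that of an AI-NS rat, followed by AI-S rats. The AU-act mean was 8.69 ± 0.21 and the AI-act mean 8.36 ± 0.40, a difference of 0.33 ± 0.11 (limma adjusted p = 0.0658) with 16 of 16 AU-act rats above the AI-act mean. The spread was wider in AI-act rats. Unc5a passed with array weights (adjusted p = 0.0291), with SAM (0.0307), and without AI-S replicate 1 (0.0108) or AI-S replicate 7 (0.0349). With the Gapdh and beta-actin control as a covariate the difference was 0.16 (adjusted p = 0.636).

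The probesets of Unc5b and of Unc5c gave unequal differences, which were not tested against each other. The dimmer probesets had within-group SDs of 0.433 (Unc5b) and 0.264 (Unc5c). The brightest probeset of Unc5b had medians of 8.85 in AU-act and 8.83 in AI-act rats and differed by -0.01, and its other probeset differed by 0.20 (limma adjusted p = 0.509). Unc5c had medians of 9.39 in AU-act and 9.41 in AI-act rats, with a difference of means of 0.05 at the brightest probeset and 0.18 at the other (adjusted p = 0.257). Ntn1, the secreted netrin that Unc5 receptors and Dcc bind, differed by -0.05. Ntng1, a membrane-anchored netrin-like protein that does not bind Dcc, also differed by -0.05. Its spread was unequal, with an SD of 0.13 in AU-act and 0.33 in AI-act rats.

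Of the 8 Eph receptors none passed at the brightest probeset, and 5 were positive and 3 negative. Epha4, which binds ephrins of both classes and restrains spines in the hippocampus, had 4 probesets. The dimmest ran from 9.57 over a median of 9.75 to 9.90 in AU-S rats, and from 9.21 over 9.61 to 9.88 in AI-S rats. In AU-NS rats it ran from 9.41 over 9.84 to 9.997, and in AI-NS rats from 9.19 over 9.59 to 9.65. All AU-NS rats but 1 lay above the AI-NS mean. Over both tasks it averaged 9.77 ± 0.15 in AU-act and 9.55 ± 0.19 in AI-act rats, a difference of 0.22 ± 0.06 or 1.16-fold (limma adjusted p = 0.029), with 15 of 16 AU-act rats above the AI-act mean. The call was lost without AU-NS replicate 2, AI-S replicate 4 or 6, or AI-NS replicate 5 or 8 (adjusted p over all 31 such fits of 0.00968 to 0.0536). With Gapdh and beta-actin as a covariate the difference was 0.11 (adjusted p = 0.536), and with hexokinase 0.06 (adjusted p = 0.871). The other probesets of Epha4 differed by 0.19 (adjusted p = 0.0772), 0.01 (0.946) and, at the brightest, 0.06 (0.386). The first of these passed under SAM (0.0329) and without AU-NS replicate 5 (0.039) or AI-S replicate 1 (0.0365).

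Epha6 and Epha7, receptors of the ephrin-A class, came next in size. Epha6 had medians of 8.76 in AU-act and 8.60 in AI-act rats, with means that differed by 0.21 ± 0.09 (limma adjusted p = 0.184). Epha7 had medians of 8.62 in AU-act and 8.49 in AI-act rats and differed by 0.19 ± 0.10 (adjusted p = 0.325), and by -0.03 with hexokinase as a covariate. Its dimmer probeset differed by 0.40 ± 0.19 (adjusted p = 0.233) and had the widest spread of all 60, with a within-group SD of 0.57. Epha3 differed by -0.08 at its brightest probeset and by -0.16 at the other, and Epha5 by -0.07. Ephb1, a receptor for the ephrin-B class, had medians of 8.99 in AU-act and 9.08 in AI-act rats and differed by 0.01. Its ligands showed no call. Efnb1 had medians of 6.00 in AU-act and 5.87 in AI-act rats, and Efnb3 had medians of 9.58 in AU-act and 9.74 in AI-act rats. Efnb3 had the largest negative difference of the 40 genes, at -0.12 ± 0.09 (adjusted p = 0.513), with 13 of 16 AU-act rats under the mean of AI-act rats.

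None of the 11 semaphorins passed, with 5 positive and 6 negative differences between -0.09 and 0.16 and a median of -0.004. Sema3c, a secreted semaphorin, had medians of 9.52 in AU-act and 9.30 in AI-act rats and the largest difference of the group, 0.16 ± 0.10 (limma adjusted p = 0.373). Sema3e, which can act on Plxnd1 without a neuropilin, had medians of 11.56 in AU-act and 11.58 in AI-act rats, and its difference was -0.00. Sema6d, a transmembrane ligand of Plxna1, had medians of 11.86 in AU-act and 11.88 in AI-act rats. The largest negative differences were those of Sema5a, at -0.09 and at -0.11 in its second probeset, and of Sema6a, at -0.07. Sema5a lay between 10.07 and 11.26 in AU-act rats and between 9.98 and 11.36 in AI-act rats, so that its range covered more than a doubling within either phenotype.

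The plexins and neuropilins, which receive the semaphorins, also held no call at 9 genes and 17 probesets, of which 14 probesets were positive. Plxna2, a receptor for class 6 semaphorins, differed by 0.10 (limma adjusted p = 0.228), 0.14 (0.0687) and 0.17 (0.282) at its 3 probesets. The dimmest of them, with the middle value, averaged 7.52 ± 0.14 in AU-act and 7.38 ± 0.12 in AI-act rats. It passed under SAM (adjusted p = 0.0231), array weights (0.0205) and the dentate granule and CA1 marker covariates (0.0305), and also without AU-NS replicate 4 (0.0489), AI-S replicate 7 (0.0496) or AI-NS replicate 4 (0.029). Plxnb1, the receptor of Sema4d, differed by 0.08 at its brightest probeset. Plxnc1, the receptor of Sema7a, differed by -0.09 at its brightest probeset and by 0.18 at the other. Nrp1, the co-receptor of secreted semaphorins, had medians of 11.86 in AU-act and 11.84 in AI-act rats and differed by 0.04. Plxna1 had medians of 11.07 in AU-act and 10.99 in AI-act rats and differed by 0.03.

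The choice of probeset mattered for several members. In all, 15 genes had several probesets, 35 together. Of the 20 probesets that were not the brightest of their gene, 14 had a larger AU-act minus AI-act difference than the brightest, and their median was 0.091 against 0.042 for the brightest of the same 15 genes. The probeset that passed was the second brightest of 3 in Robo2 and the dimmest of 4 in Epha4. The widest gaps within a gene were 0.274 in Plxnc1, 0.224 in Robo2, 0.219 in Epha7, 0.207 in Epha4 and 0.201 in Unc5b. In 3 genes the probesets differed in sign. Whether these probesets read different transcripts was not tested.

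**Figure D3:**
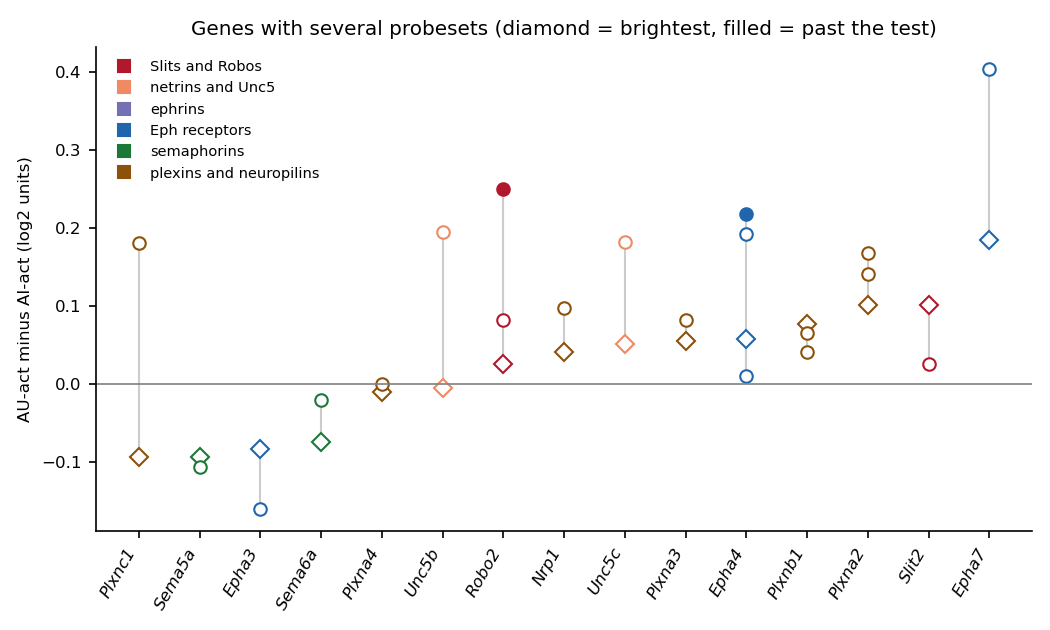
AU-act minus AI-act difference (log2 units) at each probeset of the 15 genes that had several. Diamonds mark the brightest probeset, filled symbols those that passed the test, and colours the role group. The 2 filled circles are probesets of Robo2 and Epha4, at 0.25 and 0.22, above the brightest of the same genes at 0.03 and 0.06.

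Split by task, the phenotypes were compared in separate rats. Between AU-S and AI-S 0 of 40 genes passed (limma, adjusted p under 0.1), with 0.0885% of all named genes called. An unadjusted p under 0.05 was found in 1 of 40, or 2.5%, and in 8.83% of all named genes. That was Plxnb1, which lay between 10.96 and 11.27 in AU-S rats and between 10.59 and 11.12 in AI-S rats. All 8 AU-S rats were above the AI-S mean, and the difference was 0.17 ± 0.07 (limma adjusted p = 0.374). Between AU-NS and AI-NS 0 of 40 genes passed, with 0% of all named genes called, and 2 of 40, or 5.0%, had an unadjusted p under 0.05, against 7.03% of all named genes. These were Unc5a, at 0.47 ± 0.13 (limma adjusted p = 0.193), and Slit1, at 0.38 ± 0.12 (adjusted p = 0.237). In both, all 8 AU-NS rats lay above the AI-NS mean. After the spatial task the same differences were 0.21 ± 0.16 for Unc5a (adjusted p = 0.634) and 0.21 ± 0.12 for Slit1 (adjusted p = 0.509). The tests of the difference between tasks gave -0.27 ± 0.21 for Unc5a and -0.17 ± 0.18 for Slit1, both with an adjusted p of 1.0, so neither was shown to depend on the task. Unc5a passed between AU-NS and AI-NS under SAM (adjusted p = 0.0878) and without AI-NS replicate 3 (0.0945). Over the 40 genes, 18 differences were positive and 7 negative in both tasks, 7 were positive only after the spatial task and 7 only after the non-spatial task, and 1, that of Epha5 after the spatial task, was at 0.

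**Figure D4:**
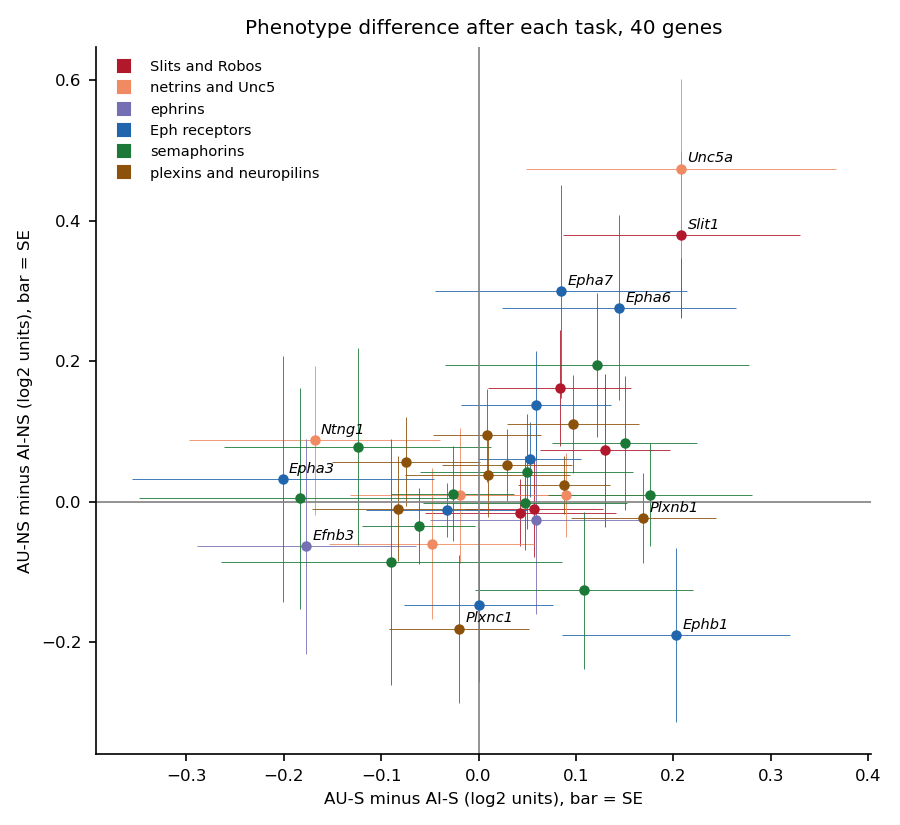
AU-S minus AI-S difference against AU-NS minus AI-NS difference (log2 units, bars are standard errors) for the 40 genes at the brightest probeset. Colours mark the role groups. Slit1 and Unc5a stand at the upper right, positive in both tasks, and Ephb1 at the lower right, positive after the spatial and negative after the non-spatial task.

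The interaction asked whether the phenotype difference itself depended on the task. None of the 40 genes passed and 0% of all named genes were called, and 1 of 40, or 2.5%, had an unadjusted p under 0.05, against 2.50% of all named genes. That gene was Ephb1. It had medians of 9.09 in AU-S and 8.94 in AI-S rats, and of 8.94 in AU-NS and 9.20 in AI-NS rats. AU rats were thus higher after the spatial task, by 0.20, and lower after the non-spatial task, by -0.19, a difference between tasks of 0.39 ± 0.18 (limma adjusted p = 1.0). All 8 AU-NS rats lay below the AI-NS mean. Plxnb1 followed at 0.19 ± 0.10 and Ntng1 at -0.26 ± 0.17, both with an adjusted p of 1.0.

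The comparison of S with NS asked what the spatial content of the task changed. Again 0 of 40 genes passed with both phenotypes pooled and phenotype as a term, where 0% of all named genes were called. Unadjusted p was under 0.05 in 6 of 40 genes and in 13.1% of all named genes. Sema6a, a transmembrane semaphorin that binds Plxna2 and Plxna4, had the largest task difference. It ran from 7.99 over a median of 8.51 to 9.14 in AU-S rats, and from 8.53 over 9.01 to 9.63 in AU-NS rats. In AI-S rats it ran from 8.19 over 8.73 to 9.15, and in AI-NS rats from 8.55 over 9.06 to 9.68. Both phenotypes were lower after the spatial task by a similar amount, -0.42 ± 0.18 in AU and -0.42 ± 0.17 in AI rats, and the ranges overlapped in each. The pooled difference was -0.42 ± 0.13 (limma adjusted p = 0.308). The second Sema6a probeset differed by -0.08 ± 0.05 (adjusted p = 0.499). This gene also had the largest within-group SD of the 40, 0.374, above 95.8% of all named genes, followed by Epha3 at 0.352 and Sema5a at 0.345.

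Plxna1 and Sema4a were the next members by p. Plxna1 had medians of 11.04 in AU-S and 11.13 in AU-NS rats, and of 10.91 in AI-S and 11.05 in AI-NS rats. The lowest value was 10.44 in an AU-S rat. The pooled difference was -0.16 ± 0.05 (limma adjusted p = 0.308), and 14 of 16 S rats lay below the NS mean. Sema4a averaged 9.79 ± 0.11 in S and 9.88 ± 0.09 in NS rats, a difference of -0.09 ± 0.04 (adjusted p = 0.346). Sema6d at -0.10 and Nrp2 at -0.09 were also lower, and Sema6b was higher at 0.15 ± 0.07, all with an adjusted p of at least 0.364. Within 1 phenotype, 0 of 40 genes passed in AI-S against AI-NS, where 3 had an unadjusted p under 0.05 (7.5%, against 4.42% of all named genes). In AU-S against AU-NS 0 of 40 passed, and 4 had (against 8.07% of all named genes). In both comparisons 0% of all named genes were called.

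**Figure D5:**
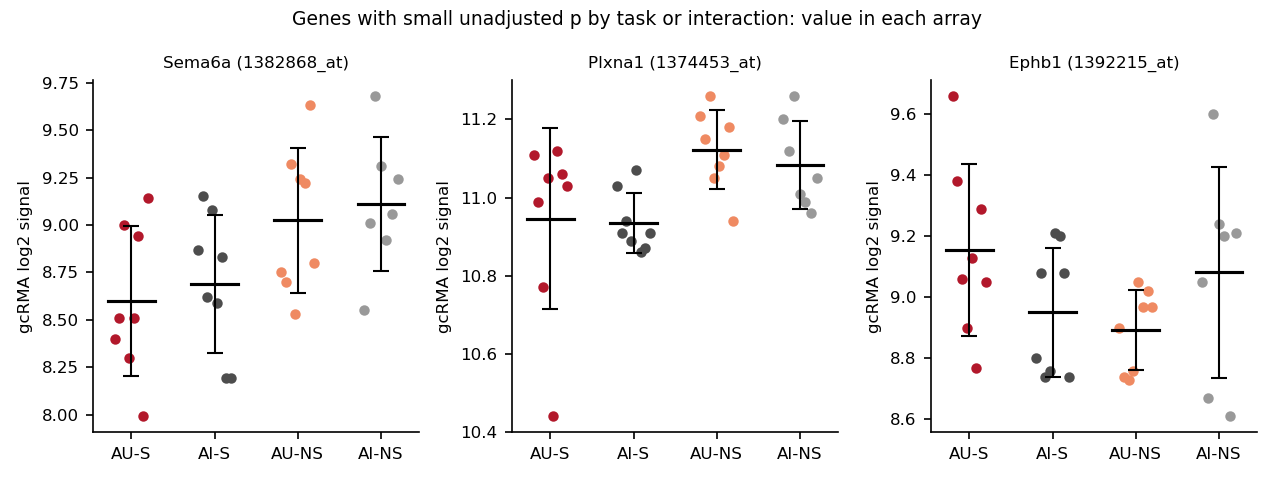
Value of each array (gcRMA log2 signal) for Sema6a and Plxna1, the members with the smallest unadjusted p in S against NS, and for Ephb1, the member with the smallest in the interaction. Points are rats, thick lines group means and bars the SD over 8 rats (7 in AI-NS). Sema6a means lie near 8.60 and 8.69 in AU-S and AI-S, and near 9.02 and 9.11 in AU-NS and AI-NS rats.

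Further genes of the pathway, listed by function but with earlier results of these data known, gave a similar picture. Of 88 listed symbols of co-receptors, adhesion molecules and signalling genes, 76 were measured. Some of the others are further names of a measured gene (Ephexin1 for Ngef, Lphn3 for Adgrl3). Between AU-act and AI-act 2 of 76 passed, both higher, or 2.63%, against 2.05% of all named genes called higher and 2.36% called in either direction. Of the 76 differences, 55 were positive and 21 negative with a median of 0.031, where 51.7% of all named genes were positive. Cntn1, a membrane-anchored adhesion molecule of axons, ran from 10.28 over a median of 10.49 to 11.12 in AU-S rats, and from 9.71 over 10.19 to 10.63 in AI-S rats. In AU-NS rats it ran from 10.20 over 10.68 to 10.85, and in AI-NS rats from 9.71 over 10.17 to 10.74. All 16 AU-act rats lay above the AI-act mean. The difference was 0.39 ± 0.10 (limma adjusted p = 0.0181), with 0.38 after the spatial and 0.40 after the non-spatial task. With the RNA controls as covariates it was 0.18 (Gapdh and beta-actin, adjusted p = 0.51) and 0.05 (hexokinase, adjusted p = 0.945). Crmp1, a cytoplasmic mediator of semaphorin signalling, averaged 11.89 ± 0.11 in AU-act and 11.77 ± 0.09 in AI-act rats, a difference of 0.13 ± 0.04 (adjusted p = 0.0433). That call was lost without any of 18 arrays (replicates 1, 3, 4, 5 and 6 of AU-S; 2, 5, 6 and 8 of AI-S; 2, 3, 4, 7 and 8 of AU-NS; 1, 5, 6 and 8 of AI-NS), with adjusted p of 0.0153 to 0.0797 over all 31. The Crmp1 call was also lost with median centring (0.0709), quantile normalization (0.122), the Gapdh and beta-actin covariate (0.315) and the hexokinase covariate (0.644). Arhgef11, an exchange factor by which B-class plexins activate RhoA, differed by 0.21 ± 0.07 (adjusted p = 0.0781). It passed with array weights (0.0134), with SAM (0.0347), with the replicate block (0.0485) and without AI-S replicate 1 (0.0116). Unc50, matched by its letters, differed by 0.00 (adjusted p = 0.978).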

How the data were processed

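Labelled cRNA made from RNA of the CA3 region was hybridised to Affymetrix Rat 230 2.0 arrays. The authors deposited log2 signals computed by gcRMA (its version: not given in the sources used here). Every one of the 16204 probesets averages 5.00 or more across arrays, and the authors had removed 1 AI-NS array in quality control. Low signals are therefore missing, and the number of arrays limits the precision. Rats are separate animals, and the labels give no batch. The paper took its rats from several behavioural runs, which the labels do not name.

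Genes were named through the platform annotation. Of the probesets, 12242 named 1 gene, 293 named several and 3669 none. Probe and protein sequences were not used here, so probesets were not placed on transcripts.

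Log2 values were tested with limma 3.58.1 (lmFit, eBayes) in R 4.3.3 on the whole table, with no filter of its own. Permutation tests used scipy 1.17.1. The steps were tested on simulated data. Alternatives were filters, centring, quantile normalization, weights, prior, task term, SAM with 100 permutations, RNA control and marker covariates, a replicate block and leaving out each array. Members, gene lists and marker lists were chosen with earlier results of these data known. Genes were named if a probeset passed, if they had the largest differences (5 each way), the brightest signal of their role (2 each), the smallest p by task or interaction (3 each), the widest spread (3) or the widest probeset gap (5). Replicate numbers were not treated as pairs in the main fits.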

Additional observations from a re-analysis of the deposited data

Results flagged for a closer look

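One array stood apart from the others of its group in 12 of 120 groups of arrays examined (30 probesets in 4 groups). Chance alone gives such a gap in about 1 of 20 groups. The gap was between the highest or lowest array and its nearest neighbour, set against the range of the group.

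Among AI rats, the lowest value of Slit1 in AI-NS was 6.82 in replicate 4, with the next at 7.29, and the lowest of the called Robo2 probeset in AI-NS was 6.56 in replicate 5, with the next at 7.00. Leaving out AI-NS replicate 4 was 1 of the fits in which Slit1 lost its call, while Robo2 kept its call without AI-NS replicate 5. In AI-S, replicate 4 was lowest for the brightest probeset of Epha4 at 13.36, with the next at 13.54, and lowest for Slit2 at 9.996, with the next at 10.28. AI-S replicate 6 was lowest for Epha6 at 7.82, with the next at 8.54. AI-S replicate 7 was highest for Efnb1 at 6.57, with the next at 6.10, and highest for Epha7 at 8.99, with the next at 8.56.

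Among AU rats, AU-NS replicate 5 was lowest at 2 probesets of Epha4, at 13.545 in the brightest (next 13.66) and at 9.41 in the called one (next 9.80). AU-NS replicate 7 was highest for Sema3c at 9.94, with the next at 9.60. In AU-S, replicate 4 was highest for Arhgef11 at 9.01, with the next at 8.57, and replicate 1 was highest for Cntn1 at 11.12, with the next at 10.62.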

How the results depend on the processing

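The count of 1 gene past the test in AU-act against AI-act was 0 with median centring, quantile normalization, the replicate block, either RNA control as a covariate, or RNA and dissection covariates together. It was 2 with array weights and with SAM (Slit1 and Unc5a), and 3 when each probeset was counted. The count of 3 probesets was 5 with array weights, 6 with SAM, 1 with the replicate block, and 0 with either RNA control or with RNA and dissection covariates. Over all probesets, 893 were called, and with the Gapdh and beta-actin covariate 1 was, with hexokinase or with RNA and dissection covariates 0, with the replicate block 591 and with SAM 1655. In AU-S against AI-S 67 were called, and 535 with SAM, 551 with array weights, 12 with quantile normalization, 9 with median centring, 3 with the replicate block, and 1 or 0 with the RNA or marker covariates. In AU-NS against AI-NS 0 were called, and 332 with SAM, 163 with a fit of all 4 groups and 40 with array weights. Without 1 array, 621 to 1181 were called in AU-act against AI-act, 5 to 448 in AU-S against AI-S and 0 to 208 in AU-NS against AI-NS. Leaving out 1 array gave 0 to 2 genes and 1 to 5 probesets. In AU-NS against AI-NS the count of 0 was 1 with SAM and 0 to 1 without 1 array. Counting every probeset, 2 passed there with SAM, that of Unc5a and the called probeset of Epha4 (difference 0.30, SAM adjusted p = 0.0921). The other comparisons gave 0 members under every alternative run. The median member difference of 0.024 lay between 0.0181 and 0.0432 without 1 array. It was 0.01114 with median centring, 0.01004 with quantile normalization and 0.0148 with the hexokinase covariate. Higher values were 0.03281 with array weights and 0.03051 with RNA and dissection covariates. The remaining alternatives gave 0.02299 to 0.02859. Counted over all member probesets it was 0.04483. The median over all probesets of the array was 0.00722 in the main fit, -0.00565 with median centring and -0.00809 with quantile normalization. Median centring moves every difference of a comparison by the same amount. The cause of the other shifts was not tested.

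Sign changes were followed only at the brightest probesets of the genes named by rule, at the called probesets, and in Cntn1, Crmp1 and Arhgef11. The other member probesets were not followed. Among the probesets followed, some differences changed sign, most of them small, but among them that of Epha7 (0.19). With the Gapdh and beta-actin covariate these were Epha4 (brightest probeset, -0.0018), Nrp1 (-0.0024), Ntng1 (0.0228), Plxna1 (-0.0763), Robo2 (brightest probeset, -0.0313), Sema6d (0.0044) and Unc5b (0.0623). With hexokinase they were Epha3 (0.0328), Epha4 (brightest probeset, -0.0091), Epha7 (-0.0329), Plxna1 (-0.0522), Robo2 (brightest probeset, -0.0493), Slit2 (-0.0092) and Unc5b (0.0297). With RNA and dissection covariates they were Epha3 (0.0113), Nrp1 (-0.0279), Ntng1 (0.0757), Plxna1 (-0.0921), Robo2 (brightest probeset, -0.0285), Slit2 (-0.0085) and Unc5b (0.0375). With dentate granule and CA1 covariates they were Ephb1 (-0.0251) and Ntng1 (0.0244). With median centring they were Efnb1 (-0.0002) and Ephb1 (-0.0022), with quantile normalization Ephb1 (-0.001) and Plxna1 (-0.0001), and with array weights Efnb1 (-0.0061) and Sema3e (0.0128). Without 1 array, Efnb1 lay between -0.0186 and 0.0594, Ephb1 between -0.0316 and 0.0528, Sema3e between -0.0336 and 0.0385, Sema6d between -0.0266 and 0.0094, and Unc5b between -0.0305 and 0.0300.

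Replicate numbers are shared by the groups, and the labels do not say whether they mark matched rats. Correlations between whole arrays cannot exclude matching by behavioural run or by learning index. The 45 same-numbered pairs had a median correlation of -0.077 (-0.466 to 0.311), 7 of them over 0.1, against 0.02 in 315 other pairs, and 1 of 31 arrays correlated best with its own number. With the number as a block, Slit1 had an adjusted p of 0.0813, the called probeset of Epha4 0.0609, that of Robo2 0.0175 and Crmp1 0.0748. Arhgef11, which was not called in the main fit, had an adjusted p of 0.0485 with the block.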
